A study of Homo sapiens with 12 samples.

Results

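Histone lysine methyltransferases place methyl groups on lysines of histone tails and cores, and histone lysine demethylases remove them. The genes were chosen by name, as all entries of the deposited count tables that begin with KMT, KDM, SETD or SMYD plus a number, with SETDB, SUV39H or SUV420H, or that are named EHMT1, EHMT2, NSD1, NSD2, NSD3, EZH1, EZH2, DOT1L, EED or SUZ12. Names that end in P, or in P and a number, were left out. The rule matched 63 of 63299 entries. Of these, 6 were copies of EHMT2 on alternate haplotype sequences with 0 counts in every library. The remaining 57 were 34 methyltransferase genes or subunits of Polycomb repressive complex 2 (PRC2), 19 demethylase genes, and 4 non-coding transcripts named after a neighbour (KMT2E-AS1, KDM4A-AS1, KDM5C-IT1 and SMYD3-IT1). NSD2 and NSD3 are listed in the tables as WHSC1 and WHSC1L1, so the rule does not take them.

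Messenger RNA was sequenced from LNCaP-shPRMT5 cells, a line made from LNCaP, an androgen-sensitive human prostate cancer line from a lymph node metastasis. All 12 libraries came from cells that carry the hairpin against PRMT5, and doxycycline at 1 µg/mL every 48 h switched it on. The 4 groups of 3 libraries were irradiated knockdown (doxycycline, 2 Gy), irradiated control (no doxycycline, 2 Gy), non-irradiated knockdown (doxycycline, 0 Gy) and non-irradiated control (no doxycycline, 0 Gy). Irradiated cells were collected 24 h after the dose. No group received doxycycline without the hairpin, so the drug and the knockdown cannot be told apart. The labels do not say how many hairpins or clones the line holds, nor that replicates were separate cultures. The p-values therefore rest on the spread between these libraries alone, and that spread may be technical. The irradiated and the non-irradiated libraries stand in separate deposited tables, so the effect of the dose and that of the table cannot be told apart.

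PRMT5 methylates arginines of histones and of splicing factors, and it shares its methyl donor, S-adenosylmethionine, with the lysine methyltransferases. Methylation of histone H3 at lysine 4 (H3K4) marks promoters and enhancers in use. Methylation at H3K9 and H3K27 marks silent chromatin, and that at H3K36 and H3K79 marks transcribed genes. In prostate cancer cells EZH2, the catalytic subunit of PRC2, is known for its link to proliferation, and the demethylases KDM1A and KDM4A to KDM4C are known as coregulators of the androgen receptor.

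The promoter windows of SMYD2, KDM5B and EZH2 are given here, since these members carry the main patterns described further on. The sequences are RefSeq windows on GRCh38.p14, from 250 bases before to 50 bases after an annotated start, written 5′ to 3′ on the gene's strand. Capitals mark the CCAAT word and the E2F words TTTCCCGC and TTTGGCGC, searched on both strands.
SMYD2, chr1:214280909-214281208, plus strand: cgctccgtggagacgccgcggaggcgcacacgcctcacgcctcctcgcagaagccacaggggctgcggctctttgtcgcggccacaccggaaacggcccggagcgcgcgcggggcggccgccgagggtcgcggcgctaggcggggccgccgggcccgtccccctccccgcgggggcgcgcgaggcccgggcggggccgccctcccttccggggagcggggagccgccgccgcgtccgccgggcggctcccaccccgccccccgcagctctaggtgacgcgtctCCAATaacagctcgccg
KDM5B, chr1:202808372-202808671, minus strand: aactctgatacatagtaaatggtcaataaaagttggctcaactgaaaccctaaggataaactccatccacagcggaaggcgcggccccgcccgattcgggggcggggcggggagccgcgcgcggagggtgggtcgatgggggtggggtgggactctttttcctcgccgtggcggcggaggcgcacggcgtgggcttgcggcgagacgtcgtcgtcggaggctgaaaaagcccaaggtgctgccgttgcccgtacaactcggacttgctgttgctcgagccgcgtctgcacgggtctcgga
EZH2, chr7:148884242-148884541, minus strand: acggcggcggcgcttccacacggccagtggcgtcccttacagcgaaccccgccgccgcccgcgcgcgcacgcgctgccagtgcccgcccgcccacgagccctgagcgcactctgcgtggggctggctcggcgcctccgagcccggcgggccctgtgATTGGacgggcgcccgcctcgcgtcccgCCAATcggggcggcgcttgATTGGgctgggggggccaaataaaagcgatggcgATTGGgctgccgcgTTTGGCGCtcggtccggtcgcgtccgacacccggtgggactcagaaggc
The SMYD2 window holds a CCAAT word after the start and no E2F word, the KDM5B window holds neither, and the EZH2 window shown holds CCAAT words before the start, on both strands (ATTGG is CCAAT on the other strand), and an E2F word just after it. A second RefSeq window of EZH2 (chr7:148883436-148883735, minus strand) holds neither word. Of the 53 members matched in the RefSeq table, 3 (EZH2, KDM1B and SUZ12, 5.66%) had an E2F word in a window, against 2.75% of all genes with a window. A CCAAT word stood in 24 members (45.3%), against 39.7% of all genes. These are matches of letters and not binding sites.

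Total counts per library ran from 14801939 to 33158865. PRMT5 was at 31.3, 26.9 and 24.9 CPM in irradiated knockdowns and 230.4, 187 and 187 in irradiated controls, and at 26.6, 30.8 and 32.8 CPM in non-irradiated knockdowns and 186, 190.4 and 198 in non-irradiated controls. Knockdown libraries held 13.8% of the control mean after irradiation and 15.7% without, with log2 fold changes of -2.86 (adjusted p = 1.20e-06) and -2.67 (adjusted p = 2.49e-06). All 9 luminal markers were detected, with summed levels of 7903 to 8593 CPM in irradiated knockdowns, 8599 to 10421 in irradiated controls, 6929 to 7754 in non-irradiated knockdowns and 7520 to 8041 in non-irradiated controls. Of 6 leukocyte markers none passed the filter on low counts, their summed level was at most 0.551 CPM in any library, and CD3E and TYROBP had 0 counts. Of 6 fibroblast markers 3 passed, with summed levels of 12.3 to 26.8 CPM and COL1A2 at 0 counts. Of 4 basal and 5 neuroendocrine markers 1 each passed, with summed levels of 0.732 to 9.98 and 1.70 to 3.04 CPM. None of these markers, luminal ones included, was called in a knockdown comparison by the unblocked fit. A fit with pairs of libraries as a block called 1 luminal marker lower after irradiation (TMPRSS2), and 1 higher (HOXB13) and 2 lower (FOLH1 and KRT18) without irradiation, and no marker of the leukocyte, fibroblast, basal and neuroendocrine lists. The proliferation list (20 genes) differed between libraries of the same group. Its summed level was 1165, 598 and 582 CPM in irradiated knockdowns and 1758, 810.3 and 774 in irradiated controls. Without irradiation it was 694, 1328 and 1109 CPM in knockdowns and 762, 417 and 425 in controls.

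The replicate 1 library of both irradiated groups stood apart from replicates 2 and 3 for several members, with a lower median for those with long exons. For the 17 tested members with at least 10000 bases of merged exons, the median log2 difference of replicate 1 from the mean of replicates 2 and 3 was -0.24 in irradiated knockdowns and -0.47 in irradiated controls. It was -0.04 in non-irradiated knockdowns and -0.01 in non-irradiated controls. For the 36 shorter members the 4 values were 0.05, -0.01, -0.09 and -0.04. KDM5A, KDM7A, KMT2A and KMT2C were among the members lowest in both irradiated replicate 1 libraries, while EHMT1, KDM2A, KDM2B, KDM4B and DOT1L, all of at least 10000 bases, were above 0 in both. Without both of them the unblocked fit called 3 members after irradiation (KDM5B higher, EZH2 and SMYD2 lower) and 6 without irradiation (DOT1L, EHMT1, KDM1A, KDM5B and KMT5C higher, SMYD2 lower). That fit called 2564 of 17464 genes without irradiation. Calls among all genes rose in both comparisons as well (counts in the last section). Whether the added calls are particular to members was not tested.

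**Figure D1:**
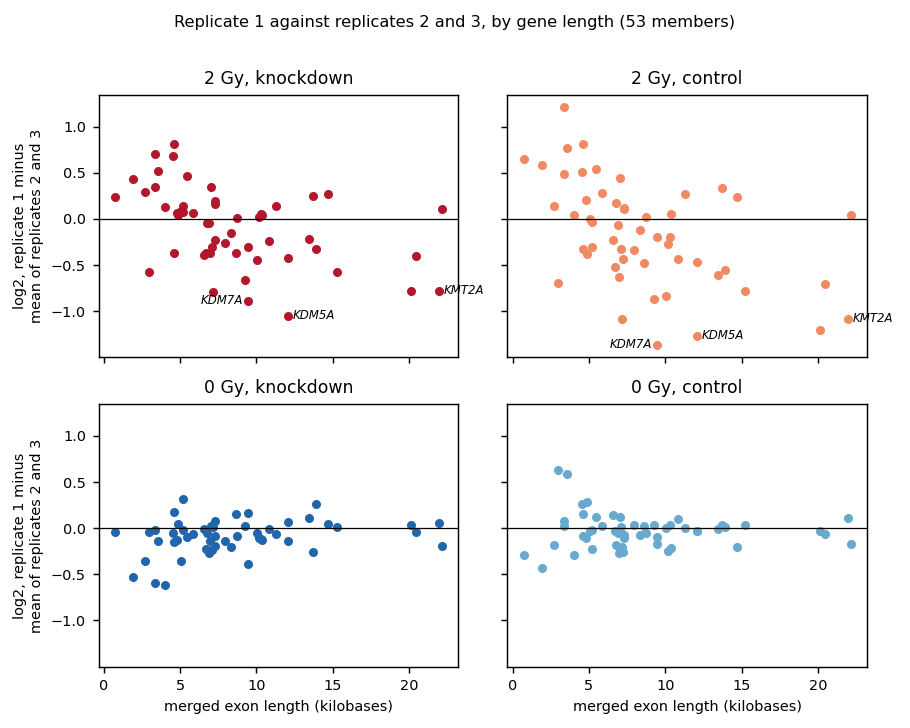
Difference of replicate 1 from the mean of replicates 2 and 3 (log2, vertical axis) against merged exon length in kilobases (horizontal axis) for the 53 tested members, 1 point per member and 1 panel per group. The lowest points are KDM5A at -1.05 in irradiated knockdowns and KDM7A at -1.37 in irradiated controls, and some long members, such as EHMT1 at 0.11 and 0.04, sit above 0 in these groups.

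Of the 57 members, 53 passed the filter on low counts. SMYD1, a muscle methyltransferase, had a highest count of 1 in any library and KDM4E one of 2, and the intronic transcripts KDM5C-IT1 and SMYD3-IT1 had highest counts of 4 and 10. Levels between genes are compared here as CPM per kilobase of merged exons, averaged over the 12 libraries. KDM6A (UTX), an H3K27 demethylase on the X chromosome, had the highest level at 56.6 CPM per kilobase. Next were KDM4A at 25.1, SETD5 at 24.6, SETD7 at 21.5, KDM1A at 21.2, SUZ12 at 19.8 and KDM6B at 19.0 CPM per kilobase. Of the 50-base words of KDM4A, 46.2% also occur in transcripts of other genes, so its level is uncertain. Among tested enzymes the lowest levels were those of KDM4D (0.851), SMYD2 (1.16), KDM4C (1.75) and KDM8 (1.76 CPM per kilobase). Exons of other genes on the same strand share 32.1% of the exon positions of KDM4C. For KDM8, 14.5% are shared on the opposite strand, so the levels of both are uncertain too.

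**Figure D2:**
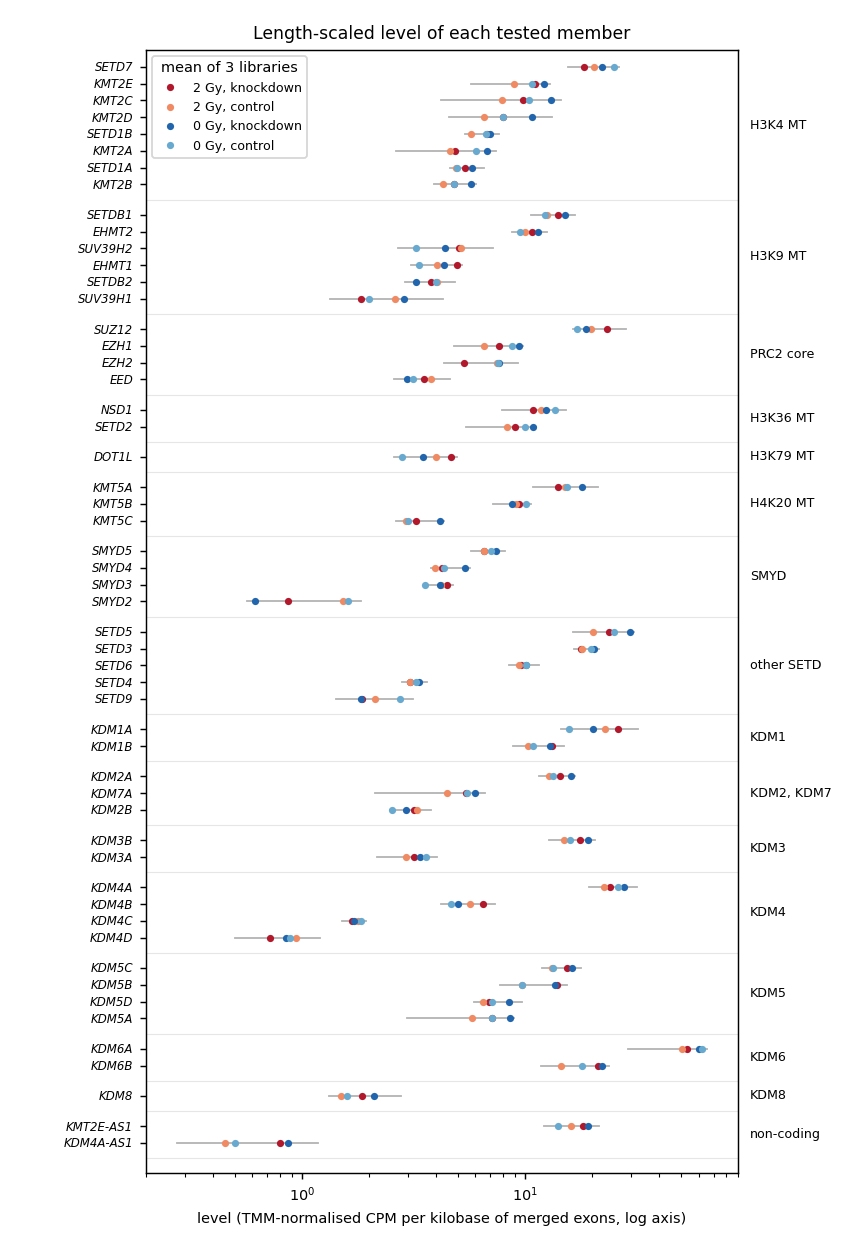
Level of each tested member in CPM per kilobase of merged exons (log axis), grouped by role. Points are means of 3 libraries per group and grey lines span all 12 libraries. KDM6A lies highest at a mean of 56.6, and the SMYD2 points of both knockdown groups lie left of those of both control groups.

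With PRMT5 knockdown most members had slightly higher values than in controls, and SMYD2 was lower. After irradiation 38 of 53 members had a positive log2 fold change, with a median of 0.11, while the median of all 17191 genes tested was -0.01 and 49.1% of them were positive. Without irradiation 41 of 53 were positive, with a median of 0.22, while the median of all genes was 0.00453 and 50.6% were positive. SMYD2, a methyltransferase of H3K36 and of p53 and RB proteins, had the most negative value in both. In bulk RNA, a change in the make-up of the culture and a change in RNA per cell cannot be told apart.

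**Figure D3:**
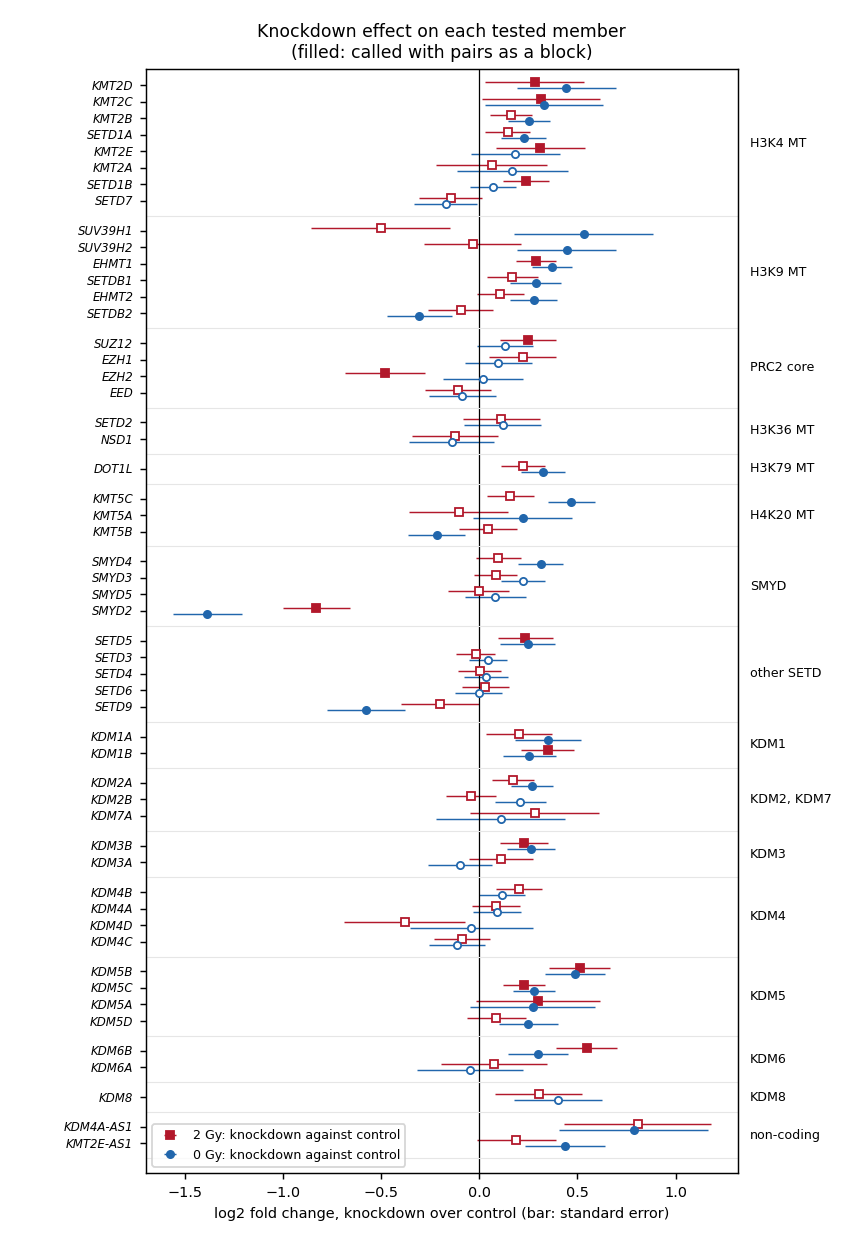
Log2 fold change of knockdown over control (horizontal axis, bars are standard errors of the unblocked fit) for the 53 tested members, by role. Red squares are irradiated cells and blue circles non-irradiated cells, and filled symbols passed an adjusted p of 0.05 with pairs as a block. SMYD2 lies farthest left in both, at -0.83 and -1.38, and most other symbols lie between 0 and 0.5.

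Calls were made at a Benjamini-Hochberg adjusted p under 0.05 in edgeR's quasi-likelihood test over all 17191 genes, in an unblocked fit and in a fit with the pair of same-numbered libraries of a table as a block. After irradiation the unblocked fit called 0 members, where 0.297% of all genes were called. At an unadjusted p under 0.05 it had 6 of 53 members, where 1595 of 17191 genes were. DESeq2 called 1 member there (SMYD2), with its count of all genes in the last section. Without irradiation the unblocked fit called 1 member, SMYD2, where 1.54% of all genes were called and 1.2% were called lower. With the block, 13 members were higher and 2 lower after irradiation, where 5.43% of all genes were higher and 6.05% lower. Without irradiation the blocked fit gave 25 higher and 4 lower members, where 13.7% of all genes were higher and 14.1% lower. The libraries of the 2 groups did not overlap for 4 members higher and 1 lower after irradiation, where 5.82% and 7.72% of all genes did the same. Without irradiation this held for 22 members higher and 4 lower, where 15.4% and 15.8% of all genes did the same.

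The blocked counts, of members and of all genes, depend on single pairs. After irradiation, 6, 2 and 3 members remained higher without pair 1, 2 or 3, where 5.04%, 0.479% and 0.384% of all genes were. Lower were 2, 0 and 0 members, where 5.54%, 1.54% and 1.21% of all genes were. Without irradiation, 22, 11 and 12 members were higher in such fits, where 14.7%, 7.45% and 6.31% of all genes were. Lower there were 4, 3 and 1 members, where 15.3%, 7.7% and 6.98% of all genes were. KDM5B and KDM6B were called higher after irradiation whichever pair was left out. Without irradiation, EHMT1, KDM1A, KDM2A, KDM5B, KDM5C, KMT2D and KMT5C were called higher and SMYD2 lower whichever pair was left out. The other calls of the blocked fit ended when at least 1 of the pairs was left out. Members have long exons, and 40 of the 53 lay among the 6876 genes with the longest exons. Of those 6876 genes, 9.32% were higher and 7.08% lower after irradiation in the blocked fit, and of the 40 members 12 were higher and 0 lower. Of the same genes, 17.6% were higher and 17.4% lower without irradiation, and of the 40 members 18 were higher and 2 lower.

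SMYD2 (ENSG00000143499.13, chromosome 1, 214281102 to 214337131, GRCh38) shared no exon position and no 50-base word with another gene. After irradiation the SMYD2 level was 4.30, 4.22 and 4.13 CPM in knockdowns and 6.15, 8.42 and 7.92 in controls. The non-irradiated values were 3.09, 2.79 and 3.15 CPM in knockdowns and 8.99, 7.25 and 7.37 in controls. All 6 knockdown libraries lay below all 6 control libraries, and the irradiated knockdowns lay above the non-irradiated ones. The mean was 4.22 ± 0.0837 CPM in irradiated knockdowns, against 7.50 ± 1.20 in irradiated controls (SD, n = 3 each). It was 3.01 ± 0.193 CPM in non-irradiated knockdowns, against 7.87 ± 0.97 in non-irradiated controls. The log2 fold change after irradiation was -0.83 (SE 0.17, adjusted p = 0.0874, and 0.00485 with the block, in a range of 0.00103 to 0.395 over alternatives). This blocked call ended when pair 2 or pair 3 was left out. Without irradiation it was -1.38 (SE 0.18, adjusted p = 0.00363), a fold of 0.383, and SMYD2 was called in 16 of 16 alternatives. The difference between the knockdown effects was 0.56 (SE 0.24, unadjusted p = 0.0413, adjusted p = 1.00), which did not pass.

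The other SMYD genes did not share this drop. SMYD3, a methyltransferase of the kinase MAP3K2, had log2 fold changes of 0.08 after irradiation and 0.22 without, and neither was called. For SMYD4 the irradiated knockdowns gave 28.2, 26.4 and 31.8 CPM and the irradiated controls 29.2, 25.6 and 25.9. It measured 35.5, 38.3 and 35.3 CPM in non-irradiated knockdowns and 26.8, 29.5 and 31.5 in non-irradiated controls. SMYD4 was called higher without irradiation in the blocked fit (log2 fold change 0.31), and its knockdown and control libraries did not overlap there. That call ended without pair 1 or pair 2. In irradiated cells SMYD5 read 26.0, 20.1 and 20.5 CPM with knockdown and 27.6, 19.5 and 19.7 without. In non-irradiated cells it read 24.9, 26.5 and 24.0 CPM with knockdown and 23.9, 25.3 and 21.98 without. The SMYD5 libraries of knockdown and control overlapped in both states.

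Among the 8 members grouped as H3K4 methyltransferases, 7 had a positive log2 fold change both after and without irradiation. The blocked fit called 4 higher in each state and none lower, where 5.43% and 13.7% of all genes were higher. KMT2C and KMT2D, which place H3K4 monomethylation at enhancers, were called in both. For KMT2D the values were 0.28 (SE 0.25) after irradiation and 0.44 (SE 0.25) without, and for KMT2C they were 0.31 (SE 0.30) and 0.33 (SE 0.30). After irradiation the calls of KMT2C, KMT2E and SETD1B ended when any 1 of the 3 pairs was left out, and that of KMT2D ended without pair 1 or pair 2. Of the 50-base words of KMT2C, 6.77% also occur in transcripts of other genes, BAGE2 among them. KMT2B, which methylates H3K4 at promoters, and SETD1A, a catalytic subunit of the SET1 complexes, were called higher without irradiation in the blocked fit. KMT2B reached 50.7, 44.9 and 53.02 CPM in the irradiated knockdowns and 40.3, 43.3 and 49.2 in the irradiated controls. Non-irradiated knockdowns had 55.9, 59.3 and 61.9 CPM and their controls 50.3, 47.3 and 50.9. The non-irradiated KMT2B groups did not overlap, with knockdowns above controls, and the irradiated groups did. Both calls ended without pair 2 or pair 3.

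KMT2A, the MLL1 gene of leukemia translocations, had its lowest values in the irradiated replicate 1 libraries. The 3 irradiated knockdowns had 71.6, 119.7 and 128 CPM of KMT2A and the 3 irradiated controls 58.1, 118 and 129.5. The 3 non-irradiated knockdowns had 152, 129.7 and 163 CPM and the 3 non-irradiated controls 137, 106 and 152. The knockdown and control ranges overlapped in both states. Transcripts of other genes hold 18.1% of the 50-base words of KMT2A. SETD7, a monomethyltransferase of H3K4 and of non-histone proteins, was the member of this group with the highest level per kilobase and the only 1 with negative values in both knockdown comparisons (-0.15 and -0.17). SETD7 was measured at 219, 280.2 and 271 CPM in irradiated knockdowns, against 217, 319 and 316 in irradiated controls. Non-irradiated cells gave 348, 291 and 289.9 CPM in knockdowns, against 351, 329 and 367 in controls. The ranges of SETD7 overlapped between knockdown and control in both states, and its irradiated libraries lay below the non-irradiated ones of the same treatment.

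Of the 6 H3K9 methyltransferases, EHMT1 was the clearest. EHMT1, known as GLP, forms with EHMT2 (G9a) the dimer that places H3K9 dimethylation in euchromatin. EHMT1 stood at 115, 103 and 111 CPM in irradiated knockdowns and at 91.4, 89.4 and 87.9 in irradiated controls. Without irradiation the knockdowns held 87.4, 95.7 and 104 CPM and the controls 68.3, 74.5 and 79.7. Knockdown libraries lay above control libraries in both states without overlap. Knockdown over control gave a log2 fold change of 0.29 (SE 0.10, adjusted p = 0.375) after irradiation and 0.37 (SE 0.10, adjusted p = 0.0895) without. With the block, the adjusted p was 0.00956 after irradiation (range 0.00956 to 0.839 over alternatives) and 0.0011 without (range 0.0011 to 0.31). The call after irradiation ended without pair 2 or pair 3. EHMT2 had 0.11 after irradiation, not called, and 0.28 without, called in the blocked fit. SETDB1, which silences retroelements through H3K9 trimethylation, was likewise called higher without irradiation in the blocked fit, and that call ended without pair 2 or pair 3. After irradiation the SETDB1 level was 86.1, 107 and 106 CPM in knockdowns and 75.8, 93.2 and 96.7 in controls. The non-irradiated values were 95.2, 106 and 119 CPM in knockdowns and 87.9, 84.1 and 90.7 in controls. Opposite-strand exons, those of CERS2 among them, cover 13.4% of the exon positions of SETDB1. SETDB2 was called lower without irradiation in the blocked fit, and this call was lost without pair 1 or pair 3. For SETDB2 the irradiated knockdowns gave 21.1, 28.2 and 26.5 CPM and the irradiated controls 20.8, 32.4 and 27.9. It measured 19.4, 23.2 and 22.3 CPM in non-irradiated knockdowns and 26.4, 25.9 and 27.9 in non-irradiated controls. The non-irradiated groups did not overlap for SETDB2, and the irradiated groups did.

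SUV39H1 and SUV39H2, which trimethylate H3K9 at pericentromeric chromatin, gave opposite signs in the 2 states. In irradiated cells SUV39H1 read 8.49, 4.50 and 5.62 CPM with knockdown and 14.4, 5.22 and 6.75 without. In non-irradiated cells it read 7.11, 11.2 and 10.8 CPM with knockdown and 6.98, 7.08 and 6.08 without. The irradiated groups overlapped, and the lowest non-irradiated knockdown was just above the highest control. Its log2 fold change was -0.50 (SE 0.35) after irradiation and 0.53 (SE 0.35) without, and the difference of -1.03 did not pass (unadjusted p = 0.0615, adjusted p = 1.00). Opposite-strand genes cover 20.3% of the exon positions of SUV39H1. SUV39H2 had -0.03 after irradiation and 0.44 without. Both were called higher without irradiation in the blocked fit, and neither was without pair 2 or without pair 3. Of all genes, 7.45% and 6.31% were called higher in those fits, against 13.7% with all pairs.

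PRC2 consists of the catalytic subunit EZH1 or EZH2, the scaffold SUZ12 and the methyl-lysine reader EED. EZH2 was lower in irradiated knockdowns in the blocked fit. EZH2 reached 32.6, 20.5 and 19.6 CPM in the irradiated knockdowns and 42.3, 30.4 and 28.6 in the irradiated controls. Non-irradiated knockdowns had 33.8, 33.4 and 37.0 CPM and their controls 38.7, 30.4 and 33.8. In each irradiated pair the knockdown library lay below its control, with log2 differences of -0.37, -0.56 and -0.53, although the ranges of the groups overlapped. EZH2 had a log2 fold change of -0.48 after irradiation (SE 0.20, adjusted p = 0.501, with the block 0.0043, range 0.0043 to 0.865 over alternatives). Without both irradiated replicate 1 libraries the unblocked fit also called it, and with the block the call ended without pair 2 or pair 3. Without irradiation the value was 0.02 (SE 0.20). The difference between the effects, -0.50, did not pass (unadjusted p = 0.11, adjusted p = 1.00). The mean of the proliferation genes had the sign of the EZH2 difference in all 6 pairs, and its part in the EZH2 values was not tested.

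SUZ12 was called higher after irradiation in the blocked fit (0.25, SE 0.14), a call that ended without pair 2 or pair 3. The 3 irradiated knockdowns had 126, 185 and 148 CPM of SUZ12 and the 3 irradiated controls 116, 148 and 124. The 3 non-irradiated knockdowns had 122.6, 130.1 and 117 CPM and the 3 non-irradiated controls 119.6, 107 and 110.0. Irradiated knockdown and control ranges overlapped. Of the 50-base words of SUZ12, 7.7% also occur in transcripts of other genes, its pseudogene SUZ12P1 among them. EZH1 was measured at 44.6, 55.2 and 60.3 CPM in irradiated knockdowns, against 33.5, 51.8 and 52.0 in irradiated controls. Non-irradiated cells gave 61.4, 68.2 and 67.4 CPM in knockdowns, against 54.0, 65.3 and 64.8 in controls. EZH1 had the higher value in the knockdown library of all 6 pairs, without a call between knockdown and control. EED stood at 28.8, 25.3 and 20.04 CPM in irradiated knockdowns and at 32.5, 24.4 and 23.1 in irradiated controls. Without irradiation the knockdowns held 20.9, 23.1 and 18.1 CPM and the controls 23.3, 20.4 and 22.3. The EED libraries overlapped between knockdown and control in both states, with log2 fold changes of -0.11 and -0.09.

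Neither SETD2 nor NSD1, the H3K36 methyltransferases among the members apart from SMYD2, was called in a knockdown comparison. SETD2, the enzyme of H3K36 trimethylation, had 0.11 after irradiation and 0.12 without. After irradiation the SETD2 level was 72.7, 99.8 and 98.0 CPM in knockdowns and 54.6, 97.5 and 98.2 in controls. The non-irradiated values were 106, 113 and 108 CPM in knockdowns and 100.4, 94.9 and 106 in controls. The irradiated replicate 1 libraries were the lowest of their groups for SETD2, and its non-irradiated knockdowns lay above their controls without a call. NSD1, an H3K36 dimethyltransferase, had -0.12 and -0.14. For NSD1 the irradiated knockdowns gave 124, 174 and 196 CPM and the irradiated controls 121, 195 and 223. It measured 190.1, 175 and 203 CPM in non-irradiated knockdowns and 211, 182 and 234 in non-irradiated controls. Its ranges overlapped in every comparison. WHSC1 (NSD2), which is no member by name, had -0.09 after irradiation and 0.33 without, and the value without irradiation was called higher in the blocked fit.

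KMT5C, 1 of the enzymes of H4K20 trimethylation, was higher in non-irradiated knockdowns in the blocked fit. In irradiated cells KMT5C read 16.1, 14.8 and 15.9 CPM with knockdown and 15.3, 12.7 and 13.9 without. In non-irradiated cells it read 18.6, 20.8 and 20.1 CPM with knockdown and 13.6, 14.8 and 14.7 without. Non-irradiated knockdowns lay above non-irradiated controls without overlap, and irradiated groups overlapped. In log2 fold change this was 0.16 (SE 0.12, adjusted p = 0.746) after irradiation and 0.47 (SE 0.12, adjusted p = 0.0722) without, where the blocked fit gave 0.00312 (range 0.00312 to 0.287 over alternatives). KMT5B, the paralogue of KMT5C, was called lower there in the blocked fit. KMT5B reached 68.1, 90.4 and 85.1 CPM in the irradiated knockdowns and 62.3, 91.6 and 82.2 in the irradiated controls. Non-irradiated knockdowns had 80.6, 74.4 and 70.8 CPM and their controls 88.6, 86.5 and 87.4. Its non-irradiated groups did not overlap, and this call ended without pair 2 or pair 3. KMT5A, the H4K20 monomethyltransferase whose levels follow the cell cycle, was called higher without irradiation in the blocked fit and lost the call without pair 2 or pair 3. The 3 irradiated knockdowns had 90.7, 49.5 and 53.6 CPM of KMT5A and the 3 irradiated controls 97.7, 52.7 and 58.0. The 3 non-irradiated knockdowns had 76.9, 85.8 and 84.7 CPM and the 3 non-irradiated controls 75.5, 75.2 and 61.5. Transcripts of other genes hold 14.9% of the 50-base words of KMT5A. In irradiated cells KMT5A was highest in the replicate 1 library of each group, which also had the highest proliferation sums.

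Among SET-domain proteins with other or non-histone substrates, the blocked fit called SETD9 lower and SETD5 higher. SETD9 was measured at 5.76, 5.49 and 3.86 CPM in irradiated knockdowns, against 6.18, 6.09 and 5.08 in irradiated controls. Non-irradiated cells gave 4.14, 5.44 and 5.40 CPM in knockdowns, against 6.79, 7.08 and 8.52 in controls. SETD9 had the lower value in the knockdown library of all 6 pairs, which only SMYD2 shared among members, where 14.4% of all genes did so. Its log2 fold change was -0.20 (SE 0.20) after irradiation and -0.58 (SE 0.20, adjusted p = 0.161, with the block 0.00943, range 0.00943 to 0.428 over alternatives) without, and the blocked call ended without pair 3. SETD5 stood at 229.5, 268 and 273 CPM in irradiated knockdowns and at 177, 234 and 244 in irradiated controls. Without irradiation the knockdowns held 318, 308 and 333 CPM and the controls 281, 236 and 292. SETD5 was called higher in both states in the blocked fit, at 0.23 and 0.25, and the call after irradiation ended when any 1 pair was left out. SETD3, a histidine methyltransferase of actin, SETD4 and SETD6, which methylates the NF-κB subunit RELA, had log2 fold changes between -0.02 and 0.04 in both states.

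The 18 tested demethylases leaned to higher values in knockdowns. After irradiation 15 were positive with a median of 0.20, and the blocked fit called 6 higher and 0 lower. Without irradiation 14 were positive with a median of 0.25, and 9 were called higher and 0 lower. In that fit 5.43% of all genes were higher and 6.05% lower after irradiation, and 13.7% and 14.1% without. The KDM5 family, which removes H3K4 trimethylation and dimethylation, had 4 of 4 tested members positive in both states, and the blocked fit called 3 of them higher after irradiation and 4 without.

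KDM5B, also known as JARID1B or PLU-1 (ENSG00000117139.16, chromosome 1, 202724491 to 202809470), had the largest knockdown values of the family. After irradiation the KDM5B level was 137, 180.1 and 186 CPM in knockdowns and 93.4, 129.6 and 129.9 in controls. The non-irradiated values were 169.8, 155 and 170.2 CPM in knockdowns and 116, 108 and 129 in controls. Knockdown libraries were above control libraries in both states with no overlap, although the replicate 1 library was the lowest of each irradiated group. Knockdown means were 168 ± 26.9 CPM after irradiation, against 118 ± 21.0 in controls, and 165 ± 8.66 CPM without irradiation, against 118 ± 10.5 in controls (SD, n = 3 each). KDM5B had a log2 fold change of 0.51 (SE 0.15, adjusted p = 0.289) after irradiation and 0.49 (SE 0.15, adjusted p = 0.13) without. With the block the adjusted p was 0.000421 (range 0.000421 to 0.745 over alternatives) and 0.000242 (range 0.000242 to 0.332). Without both irradiated replicate 1 libraries the unblocked fit called KDM5B in both comparisons. For KDM5C the irradiated knockdowns gave 135, 126 and 142 CPM and the irradiated controls 115, 104 and 125. It measured 135, 133 and 155 CPM in non-irradiated knockdowns and 113, 112 and 123.5 in non-irradiated controls. KDM5C was called higher in both states in the blocked fit, at 0.23 and 0.28, and its groups did not overlap in either. Its call after irradiation ended without pair 2 or pair 3. In irradiated cells KDM5A read 50.2, 102 and 106 CPM with knockdown and 35.9, 87.5 and 87.0 without. In non-irradiated cells it read 97.4, 108 and 106 CPM with knockdown and 84.7, 79.04 and 94.9 without. KDM5A was called in both in the blocked fit, but its irradiated replicate 1 values were far below the other replicates and the irradiated call ended when any 1 pair was left out.

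KDM6B, the inducible H3K27 demethylase JMJD3 (ENSG00000132510.10, chromosome 17, 7839904 to 7854796), had the most positive knockdown value of any enzyme after irradiation. KDM6B reached 138, 157 and 168 CPM in the irradiated knockdowns and 85.2, 109 and 122.9 in the irradiated controls. Non-irradiated knockdowns had 167, 145 and 173 CPM and their controls 116, 125 and 153. Irradiated knockdowns lay above irradiated controls without overlap, and non-irradiated groups overlapped. After irradiation KDM6B had a log2 fold change of 0.55 (SE 0.15, adjusted p = 0.252, with the block 0.00144, range 0.00144 to 0.706 over alternatives). It was 0.30 (SE 0.15, adjusted p = 0.347, with the block 0.0141, range 0.0141 to 0.65) without. The difference of 0.25 (SE 0.22) between these effects did not pass (unadjusted p = 0.278, adjusted p = 1.00). The 3 irradiated knockdowns had 255, 461 and 422 CPM of KDM6A and the 3 irradiated controls 206, 453 and 423. The 3 non-irradiated knockdowns had 433, 459 and 401 CPM and the 3 non-irradiated controls 404, 468 and 462. Its paralogue KDM6A gave 0.07 and -0.05, was called in neither, and had its lowest values in the irradiated replicate 1 libraries.

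**Figure D4:**
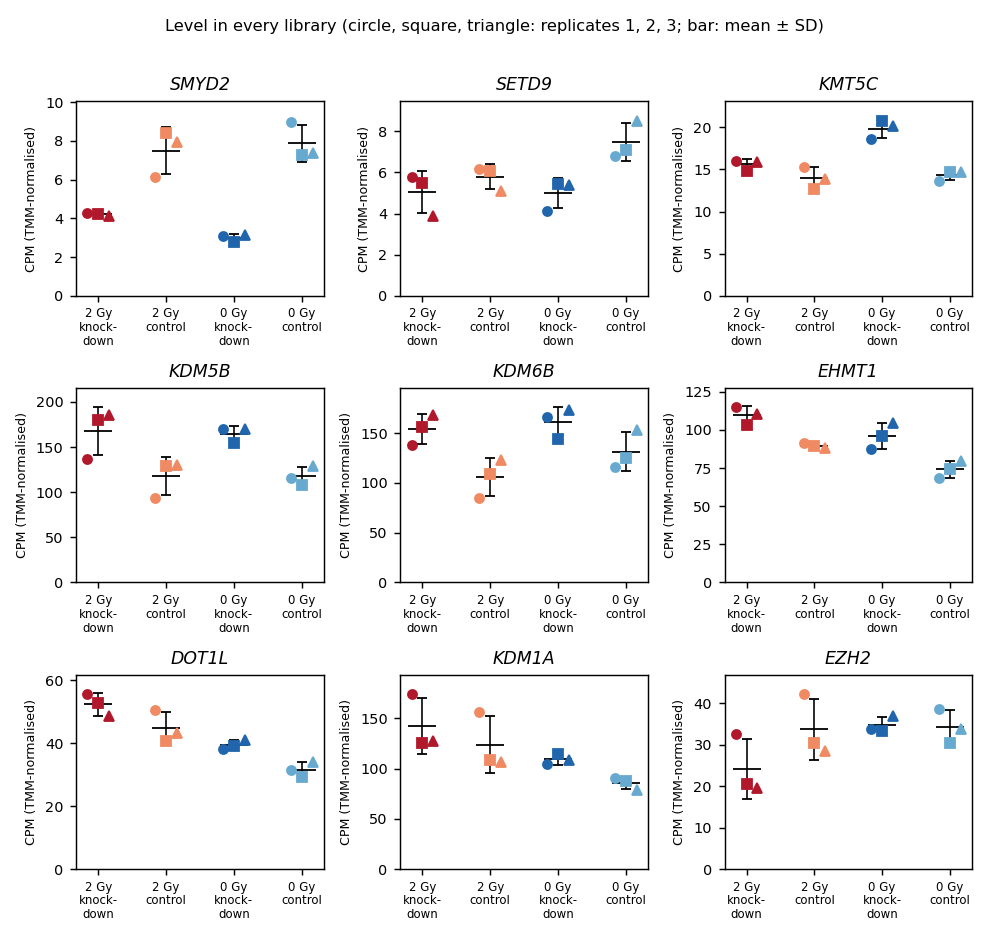
TMM-normalised CPM in every library for 9 members, with irradiated knockdowns, irradiated controls, non-irradiated knockdowns and non-irradiated controls from left to right. Symbols are replicates, and bars are the mean and SD of 3 libraries. SMYD2 knockdown libraries lie between 2.79 and 4.30 CPM, below all control libraries, and KDM5B knockdown libraries lie above the control libraries of the same state.

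KDM1A, the lysine-specific demethylase LSD1, was called higher in non-irradiated knockdowns in the blocked fit. KDM1A was measured at 175, 126 and 128 CPM in irradiated knockdowns, against 157, 108 and 107 in irradiated controls. Non-irradiated cells gave 104, 115 and 108 CPM in knockdowns, against 90.6, 87.8 and 78.7 in controls. Non-irradiated knockdowns were above their controls without overlap. KDM1A had a log2 fold change of 0.20 (SE 0.17) after irradiation and 0.35 (SE 0.17, adjusted p = 0.307, with the block 0.00242, range 0.000691 to 0.569 over alternatives) without. In irradiated cells the replicate 1 library was the highest of each group. KDM1B stood at 50.6, 68.4 and 63.1 CPM in irradiated knockdowns and at 40.7, 53.6 and 48.6 in irradiated controls. Without irradiation the knockdowns held 64.5, 57.6 and 56.6 CPM and the controls 47.9, 52.1 and 49.7. KDM1B, known as LSD2, was called higher in both states in the blocked fit (0.35 and 0.25), with the irradiated call lost without pair 2 or pair 3 and the non-irradiated one without pair 1 or pair 3.

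Of KDM2A and KDM2B, which remove H3K36 dimethylation at CpG islands, KDM2A was called higher without irradiation in the blocked fit (0.27), and its value after irradiation was 0.17. After irradiation the KDM2A level was 152, 141 and 156 CPM in knockdowns and 136, 120.5 and 142 in controls. The non-irradiated values were 156, 169 and 174 CPM in knockdowns and 125, 141 and 149 in controls. The non-irradiated KDM2A groups did not overlap. For KDM2B the irradiated knockdowns gave 48.7, 40.4 and 41.3 CPM and the irradiated controls 51.9, 39.6 and 42.8. It measured 35.5, 42.9 and 42.3 CPM in non-irradiated knockdowns and 35.3, 35.1 and 33.9 in non-irradiated controls. KDM2B had -0.04 after irradiation and 0.21 without, and was called in neither, although its non-irradiated knockdowns lay above their controls. KDM7A had 0.28 and 0.11, with standard errors of 0.33 and 0.33, and was called in neither.

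KDM3B, an H3K9 demethylase, was called higher in both states in the blocked fit (0.23 and 0.26), and KDM3A in neither (0.11 and -0.10). In irradiated cells KDM3B read 124, 148 and 149 CPM with knockdown and 102, 122 and 135 without. In non-irradiated cells it read 142, 150.2 and 163 CPM with knockdown and 129, 121 and 130.3 without. The KDM3B call after irradiation ended when any 1 of the 3 pairs was left out. KDM3A reached 38.4, 45.7 and 43.7 CPM in the irradiated knockdowns and 29.1, 47.0 and 42.2 in the irradiated controls. Non-irradiated knockdowns had 47.7, 43.2 and 44.8 CPM and their controls 48.0, 43.2 and 54.2. The KDM3A ranges overlapped throughout. None of the 4 tested KDM4 genes, the H3K9 and H3K36 trimethyl demethylases, was called in a knockdown comparison by either fit. The 3 irradiated knockdowns had 128, 117 and 126 CPM of KDM4A and the 3 irradiated controls 101, 119 and 131. The 3 non-irradiated knockdowns had 164, 127 and 138 CPM and the 3 non-irradiated controls 133, 132 and 138. KDM4A had 0.09 and 0.09, with overlapping ranges. KDM4D was measured at 1.498, 2.496 and 2.47 CPM in irradiated knockdowns, against 1.83, 3.01 and 3.56 in irradiated controls. Non-irradiated cells gave 2.48, 2.65 and 2.49 CPM in knockdowns, against 3.58, 2.44 and 1.87 in controls. KDM4D is expressed near the lowest levels here, and its value of -0.38 after irradiation had a standard error of 0.31. KDM8 stood at 7.95, 6.65 and 7.91 CPM in irradiated knockdowns and at 6.18, 5.35 and 6.71 in irradiated controls. Without irradiation the knockdowns held 6.07, 8.05 and 11.3 CPM and the controls 5.53, 6.28 and 7.47. KDM8 had 0.30 and 0.40, without a call.

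The 2 tested non-coding transcripts run antisense to a member. After irradiation the KMT2E-AS1 level was 15.0, 12.2 and 13.1 CPM in knockdowns and 15.7, 9.91 and 9.71 in controls. The non-irradiated values were 13.8, 14.5 and 13.9 CPM in knockdowns and 8.93, 12.6 and 9.62 in controls. KMT2E-AS1 was called higher without irradiation in the blocked fit (0.44), and its non-irradiated groups did not overlap. That call ended without pair 1 or pair 3. KMT2E-AS1 shares 19.4% of its exon positions with opposite-strand exons, those of KMT2E among them. KDM4A-AS1 shares 24.0%, with those of KDM4A among them. The strand setting of the counting is not known here, so reads at these shared positions cannot be told apart from those of the partner gene. For KDM4A-AS1 the irradiated knockdowns gave 1.96, 1.13 and 1.53 CPM and the irradiated controls 1.26, 0.839 and 0.531. It measured 1.16, 1.57 and 2.28 CPM in non-irradiated knockdowns and 0.691, 1.012 and 1.20 in non-irradiated controls. KDM4A-AS1 had 0.81 (SE 0.37) and 0.79 (SE 0.38). The value without irradiation was called higher in the blocked fit, and not when any 1 pair was left out.

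The 2 knockdown comparisons use separate libraries. In the blocked fits 10 members were higher in both (KMT2C, KMT2D, EHMT1, KDM1B, KDM3B, KDM5A, KDM5B, KDM5C, KDM6B and SETD5), where 677 of all genes (3.94%) were. SMYD2 was lower in both, where 801 genes (4.66%) were, and no member was called in opposite directions. By the sign of the pair difference alone, 24 members were higher in the knockdown library of all 6 pairs, where 14.4% of all genes were. The test of the difference between the knockdown effects called 0 of 17191 genes in edgeR, blocked or not. At an unadjusted p under 0.05 stood 1 member (SMYD2) and 350 genes, and DESeq2 called 1 gene, no member.

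The proliferation genes differed between pairs, and the values of EZH2, SUV39H1, KMT5A, KDM5B and SMYD2 are set beside them. The mean pair difference of the 20 proliferation genes (knockdown minus control, log2) was -0.68, -0.59 and -0.55 in irradiated pairs 1 to 3, and -0.33, 2.06 and 1.60 in non-irradiated pairs 1 to 3. EZH2 had -0.37, -0.56 and -0.53 in irradiated pairs and -0.19, 0.13 and 0.13 in non-irradiated pairs. EZH2 and KDM4D, 2 of 53 members, had the sign of the proliferation mean in all 6 pairs, as did 2.45% of all genes. SUV39H1 had -0.73, -0.19 and -0.25 in irradiated pairs and 0.03, 0.62 and 0.78 in non-irradiated pairs. KMT5A had -0.11, -0.09 and -0.11, and 0.03, 0.19 and 0.46. KDM5B stayed between 0.40 and 0.55 in all 6 pairs, and SMYD2 between -1.40 and -0.47. Of the 20 proliferation genes, 0 were positive after irradiation, with a median log2 fold change of -0.77, and 20 without, with a median of 0.93. The unblocked fit called none of them in a knockdown comparison. The blocked fit called 0 after irradiation and 2 higher without (MCM2 and PCNA). The part of proliferation in the members' values was not tested.

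**Figure D5:**
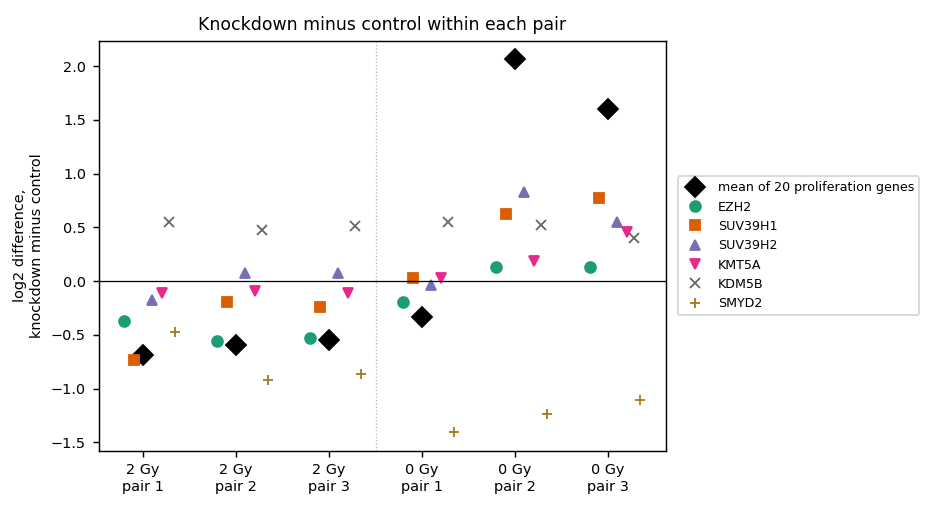
Difference of knockdown minus control (log2, vertical axis) in each of the 6 pairs of same-numbered libraries, for the mean of 20 proliferation genes (black diamonds) and 6 members. The proliferation mean runs from -0.68 to 2.06, EZH2, SUV39H1, SUV39H2 and KMT5A shift between pairs, and KDM5B stays above 0 and SMYD2 below 0 in all 6.

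Between irradiated and non-irradiated libraries, DOT1L was the only member that passed the unblocked test. In knockdowns the unblocked fit called 0 members, where 3.58% of all genes were called. At an unadjusted p under 0.05 it had 10 of 53 members, where 3600 of all genes were. DESeq2 called DOT1L higher and KMT5C lower there, with its count of all genes in the last section. In controls the unblocked fit called 1, DOT1L, where 2.26% of all genes were called and 1.38% were called higher. The groups did not overlap for 5 members higher and 11 lower in knockdowns, where 15.8% and 14.0% of all genes did the same, and for 6 higher and 5 lower in controls, where 13.7% and 13.9% did. The median log2 fold change of the members was -0.13 in knockdowns and -0.08 in controls. With scaling by library size alone the median of all genes shifted to -0.15 in knockdowns and -0.16 in controls, and that of the members to -0.27 and -0.24. Without both irradiated replicate 1 libraries the members' medians were -0.07 and -0.04, and 5 members were called in knockdowns, DOT1L and SUZ12 as higher and EZH2, KMT5A and SUV39H1 as lower. Calls among all genes also rose in that fit (counts in the last section), and whether the added calls are particular to members was not tested.

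DOT1L, the H3K79 methyltransferase (ENSG00000104885.17, chromosome 19, 2164149 to 2232578), was higher in irradiated libraries. In irradiated cells DOT1L read 55.7, 52.6 and 48.6 CPM with knockdown and 50.7, 40.6 and 43.2 without. In non-irradiated cells it read 38.3, 39.2 and 41.0 CPM with knockdown and 31.6, 29.3 and 33.9 without. Irradiated libraries lay above the non-irradiated libraries of the same treatment without overlap, in knockdowns and in controls. The log2 fold change of irradiated over non-irradiated cells was 0.41 (SE 0.11, adjusted p = 0.0717) in knockdowns and 0.51 (SE 0.11, adjusted p = 0.0426) in controls. The call in controls was lost with scaling by library size alone, with no filter on low counts, in the fit of the 6 libraries compared, and without any 1 of the 6 libraries. Its adjusted p ran from 0.00295 to 0.181 over alternatives. Genes on the opposite strand cover 11.5% of the exon positions of DOT1L. Knockdown values for DOT1L were 0.22 after irradiation and 0.32 without, and the value without irradiation was called higher in the blocked fit.

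Other irradiation values did not pass in the unblocked fit. KDM4B, whose groups did not overlap in either comparison, had 0.37 in knockdowns and 0.28 in controls. KDM4B reached 108, 87.4 and 91.7 CPM in the irradiated knockdowns and 92.4, 74.8 and 82.2 in the irradiated controls. Non-irradiated knockdowns had 75.3, 73.9 and 72.5 CPM and their controls 61.8, 68.9 and 74.1. KDM1A, whose irradiated libraries also lay above the non-irradiated ones, had 0.39 and 0.53, and KDM2B had 0.11 and 0.36. On the negative side stood EZH2 (-0.52 in knockdowns and -0.02 in controls) and KMT5C (-0.35 and -0.04). EZH1 (-0.30 and -0.42) and KMT2A (-0.48 and -0.38) were also negative. SUV39H1 had -0.65 in knockdowns and 0.39 in controls, and SUV39H2 had 0.21 and 0.69. SMYD2 had 0.49 (adjusted p = 0.143) in knockdowns and -0.07 in controls.

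Of related genes outside the name rule, PHF2 moved more than most members. PHF2 is a JmjC protein that removes H3K9 dimethylation, and it was called lower in both knockdown comparisons. The 3 irradiated knockdowns had 35.8, 38.9 and 40.7 CPM of PHF2 and the 3 irradiated controls 65.5, 88.5 and 96.004. The 3 non-irradiated knockdowns had 37.9, 52.7 and 54.8 CPM and the 3 non-irradiated controls 83.9, 108 and 104. All 6 knockdown libraries lay below all 6 control libraries. PHF2 had a log2 fold change of -1.11 (SE 0.17, adjusted p = 0.0205, called in 10 of 16 alternatives) after irradiation and -1.02 (SE 0.17, adjusted p = 0.0169, called in 12 of 16) without. The call after irradiation ended in the fit of the 6 compared libraries and without control replicate 2 or 3 or any knockdown library, with adjusted p-values in a range of 2.58e-06 to 0.231 over alternatives. The call without irradiation ended without control or knockdown replicate 2 or 3, in a range of 8.26e-06 to 0.0927. None of the other 14 tested SET-domain and JmjC genes outside the rule was called in the unblocked fit. Its paralogue PHF8 had 0.32 and 0.28, called higher in both by the blocked fit. In that fit 4 genes of this list were higher and 2 lower after irradiation, and 5 higher and 2 lower without. Of all genes, 5.43% were higher and 6.05% lower after irradiation, and 13.7% and 14.1% without.

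No partner subunit was called in a knockdown comparison by the unblocked fit, and the blocked fit called some. In the blocked fit 5.43% of all genes were higher and 6.05% lower after irradiation, and 13.7% and 14.1% without. Of 14 partners of the KMT2 and SETD1 complexes none was called in the unblocked fit, and PAXIP1 had the smallest p in both knockdown comparisons (0.30 and 0.36). The blocked fit called 1 higher and 1 lower after irradiation and 5 higher and 1 lower without. Of 9 PRC2 accessory subunits, JARID2, which lacks demethylase activity and tethers PRC2, had 0.40 and 0.55, called higher in both by the blocked fit, which called 2 higher and 0 lower after irradiation and 4 higher and 1 lower without. PHF1, a Polycomb-like subunit, was called lower in irradiated cells. PHF1 was measured at 9.75, 16.3 and 16.1 CPM in irradiated knockdowns, against 15.2, 17.4 and 20.3 in irradiated controls. Non-irradiated cells gave 30.8, 37.1 and 28.3 CPM in knockdowns, against 28.7, 37.6 and 32.5 in controls. Its log2 fold change was -1.19 (SE 0.20, adjusted p = 0.0138) in knockdowns and -0.90 (SE 0.20, adjusted p = 0.044) in controls, called in 12 of 13 and in 6 of 13 alternatives. The call in knockdowns ended without non-irradiated knockdown replicate 2 (range 6.87e-06 to 0.0723 over alternatives), and that in controls in the fit of the compared libraries and without any 1 control library (range 0.00182 to 0.167). Of 9 partners of KDM1A none was called in the unblocked fit, the blocked fit called 0 after irradiation and 1 higher and 2 lower without, and RCOR3 had the smallest p in both knockdown comparisons (-0.28 and -0.62). Of 10 genes that supply or remove S-adenosylmethionine none was called by either fit in any comparison.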

How the data were processed

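Polyadenylated RNA of 12 libraries was sequenced. The authors deposited raw read counts per gene in 2 tables of 6 libraries. STAR 2.5, featureCounts, Subread 1.5.3, edgeR 3.20.8 and GRCh38 are named in the submitters' processing notes. No source used here gives the strand setting or the treatment of multi-mapped reads. Every per-sample column was used.

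All deposited counts were fitted together with edgeR 4.0.16 (R 4.3.3, limma 3.58.1), with TMM scaling, a filter on low counts (minimum count 10, minimum total 15; 17191 genes kept) and the robust quasi-likelihood test over 4 groups (8 residual degrees of freedom, biological coefficient of variation 0.216). The p-values were adjusted by Benjamini-Hochberg over all genes tested, with a threshold of 0.05. Standard errors are the log2 fold change divided by the square root of the F statistic. CPM values come from edgeR's cpm function on TMM-scaled library sizes, and pair differences are of log2(CPM + 0.5). A count of 3, the limit that a count of 0 allows, equals 0.0905 to 0.203 CPM. DESeq2 1.42.0, RLE and library-size scaling, no filter, fits of the compared libraries alone, each library left out and the block were tried as alternatives. The scripts were tested on simulated data.

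Same-numbered libraries of a table deviated together from their group means, with correlations of 0.607 to 0.775 in the irradiated and 0.233 to 0.296 in the non-irradiated table. In the irradiated table, knockdown 2 with control 3 and knockdown 3 with control 2 also gave 0.476 and 0.396. Unmatched libraries that include a replicate 1 gave -0.677 to -0.592 there. Replicate 1 stood apart in both irradiated groups, so these irradiated correlations do not measure pairing alone. The pairing comes from this check, not from the labels. Across tables the same numbers gave -0.15 to 0.14, and no pairing was used there.

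Values in each library are given for members called in any comparison, for those with the largest non-overlapping changes (up to 4 in each direction per comparison), and for the highest and lowest level per role, 39 members in all. Of related lists, the genes called or those with the smallest p are named. The members, lists and rules were chosen with earlier results of these data known. Further genes named in passing were chosen after their values were seen. Promoter windows are from RefSeq. Python 3.11.15, pandas 2.3.3, scipy 1.17.1 and matplotlib 3.10.9 were used for summaries and figures.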

Additional observations from a re-analysis of the deposited data

How the results depend on the processing

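Member calls depended on the model. Against 0 members in irradiated knockdown over control, DESeq2 called 1, the replicate block 15, and the fit without both irradiated replicate 1 libraries 3, while leaving out libraries or pairs gave 0 to 8. Against 1 member without irradiation, DESeq2 called 4, the 6 compared libraries alone 5, the replicate block 29, the fit without both irradiated replicate 1 libraries 6, and leaving out libraries or pairs 1 to 26 (14 without pair 2 and 13 without pair 3 in the blocked fit). Of irradiated over non-irradiated knockdowns, 0 members were called, against 2 by DESeq2, 2 with library-size scaling and 5 without both irradiated replicate 1 libraries. In controls, the 1 call (DOT1L) became 0 with library-size scaling, with no filter or with only the compared libraries, 2 with the replicate number as a block (EZH1 lower as well), and 0 to 0 with a library left out. Those numbers are shared across tables without pairing the samples.

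Counts of all genes called moved alike. Irradiated knockdown over control had 51 genes, against 265 by DESeq2, 1 in the compared libraries alone, 1974 with the block and 326 without both replicate 1 libraries. Without irradiation it had 265, against 1034, 1486, 4776 and 2564. Irradiation gave 615 genes in knockdowns and 389 in controls, against 1438 and 1377 by DESeq2, 344 and 64 in the compared libraries alone, 1157 and 965 with the replicate number as a block, and 1806 and 868 without both replicate 1 libraries. In controls library-size scaling gave 614 and no filter 592. With 1 library left out the counts ran from 4 to 254 after irradiation and from 31 to 341 without for the knockdown comparisons, and from 76 to 280 in knockdowns and 24 to 341 in controls for irradiation. The median difference between knockdown effects, -0.03, ran from -0.079 (without non-irradiated knockdown replicate 1) to 0.021 (without non-irradiated knockdown replicate 3) and was 0.016 without irradiated control replicate 3. The cause was not tested. The fits without 1 pair and those without both replicate 1 libraries were chosen after seeing the data. In the blocked fit the difference between the knockdown effects also gave 0 calls. Few counts per library limit the precision of low members such as KDM4A-AS1, KDM4D, SMYD2 and SETD9.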
